A study of Drosophila melanogaster with 48 samples.

Results

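The microsomal cytochrome P450 genes of the fly were taken as the gene rows whose FlyBase symbol begins with Cyp and a digit. Cyp4g1 and the genes of mitochondrial P450 enzymes (all Cyp12 genes, Cyp49a1, Cyp301a1, Cyp302a1 and Cyp314a1) were left out, and a mean of at least 0.5 CPM (counts scaled to equal library totals) over the 48 libraries was required. Of 14205 gene rows, 85 matched the symbol pattern, 10 of these were left out by name and 11 were under the minimum, so that the rule gave 64 genes. Cyp1 and Cyp40 among the 64 encode cyclophilins, which are prolyl isomerases and not P450 enzymes, and they were set aside. The 62 genes described here were all annotated as protein coding. By the clans into which insect P450 genes are grouped, 33 belonged to the CYP3 clan, 25 to the CYP4 clan and 4 to the CYP2 clan. The genes nearest to the minimum were Cyp309a2 (0.550 CPM) and Cyp4ad1 (0.701 CPM) above it, and Cyp6d2 (0.360 CPM) and Cyp4d21 (0.221 CPM) below it.

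RNA had been sequenced from abdominal fat body with the attached epidermis and oenocytes of mated w1118 (iso31) females. Flies were raised on standard yeast, cornmeal and molasses food and were about 3 d old when they were moved to a test diet, which held sucrose and yeast at 15% (control) or at 5% (restricted). They stayed on it for 5 d in a light and dark cycle of 12 h each, kept at 25 °C, and were about 8 d old at dissection. No transgene or further allele is named for either diet. Collections at 2 h steps covered 12 zeitgeber times (ZT, counted in hours from lights on). About 10 flies were pooled per library, and the 2 libraries of each diet and time, numbered 1 and 2, are here called replicate series 1 and 2. The replicates are called biological, but no label says which cage, day or batch a number stands for, so p-values measure the spread between these libraries.

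Microsomal P450 enzymes sit in the membrane of the endoplasmic reticulum and add oxygen to small, mostly fat-soluble molecules, using electrons that the reductase Cpr passes on from NADPH. Insect genes of the CYP3 clan are known chiefly for the breakdown of plant toxins and insecticides, those of the CYP4 clan for the hydroxylation of fatty acids and of other substrates, and those of the CYP2 clan for hormone metabolism and development. The fat body, the fly's counterpart of liver and adipose tissue, is a main site of this detoxification, together with the midgut and the Malpighian tubules.

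Totals of estimated counts ran from 5815474 to 33485927 per library. A gene listed at 0 need not have been absent, since a level of up to about 3 expected counts can still give 0. In these libraries 3 counts are 0.0896 to 0.516 CPM. The tissue's own markers were abundant in every library, with a summed level of 57544 to 234510 CPM for the fat body list and of 29542 to 107190 CPM for the oenocyte list. Transcripts of the organs cut away at dissection were also present: the ovary list summed to 252 to 8604 CPM on the control diet and 20.3 to 5569 CPM on the restricted diet, the gut list to 14.2 to 10541 and 7.30 to 11952 CPM, and the Malpighian tubule list to 152 to 654 and 46.7 to 956 CPM. No list had a gene at 0 in all libraries, and 11 of 19 ovary markers tested were lower on the restricted diet (0 higher). Of the gut list 0 were higher and 1 lower of 30, and of the tubule list 0 of 13 were called. Markers of the tissue and of other cell types gave 2 higher and 0 lower of 5 oenocyte genes, 1 and 1 of 10 fat body genes, 3 and 0 of 9 hemocyte genes, 4 and 0 of 10 muscle genes and 2 and 0 of 6 neuron genes. In 1 library, restricted ZT2 replicate 1, ribosomal RNA took 53.8% of counts. Because whole tissue was sequenced, fewer cells of a type and less RNA per cell cannot be told apart.

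The 62 genes together held 0.417% ± 0.127 (SD, n = 48) of the counts, and a few genes made up most of their RNA. Levels between genes were compared in TPM, a unit that scales to equal totals and corrects for transcript length. Cyp6d5, linked to caffeine metabolism, averaged 623 ± 255 TPM (SD, n = 48) and held 22.5% of the summed P450 TPM. Cyp6g1, known for insecticide resistance through overexpression, averaged 411 ± 119 TPM. Cyp6w1, reported as overexpressed in a DDT-resistant strain, averaged 352 ± 236 TPM, and these 3 genes made up 50.0% of the sum. Their ranges overlapped over the libraries (247 to 1267 TPM for Cyp6d5, 199 to 779 for Cyp6g1 and 54.3 to 974 for Cyp6w1), so that their order held for the means and not for every library. Next came Cyp4e2 (180 ± 85.0 TPM), Cyp6a8 (153 ± 149), Cyp9b2 (123 ± 27.6), Cyp9f2 (116 ± 25.7) and Cyp6a23 (72.8 ± 21.1). The summed mean level was 2215 TPM for the CYP3 clan, 530 TPM for the CYP4 clan and 24.5 TPM for the CYP2 clan.

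At the low end, 31 of the 62 genes averaged 10 TPM or less and 7 under 1 TPM. Those 7 were Cyp310a1, Cyp312a1, Cyp313a3, Cyp313a1, Cyp4ad1, Cyp303a1 and Cyp309a2. In all, 55 genes had counts in every library, and Cyp313a3 was listed at 0 in 15 libraries, the most of any. The CYP2 clan genes ran from Cyp18a1 (16.2 TPM), which inactivates the molting hormone 20-hydroxyecdysone, through Cyp304a1 (4.31 TPM) and Cyp305a1 (3.52 TPM) to Cyp303a1 (0.405 TPM), which is needed for bristle development. Sibling genes could stand far apart, as with Cyp9b2 at 123 TPM and its neighbour Cyp9b1 at 7.12 TPM.

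**Figure D1:**
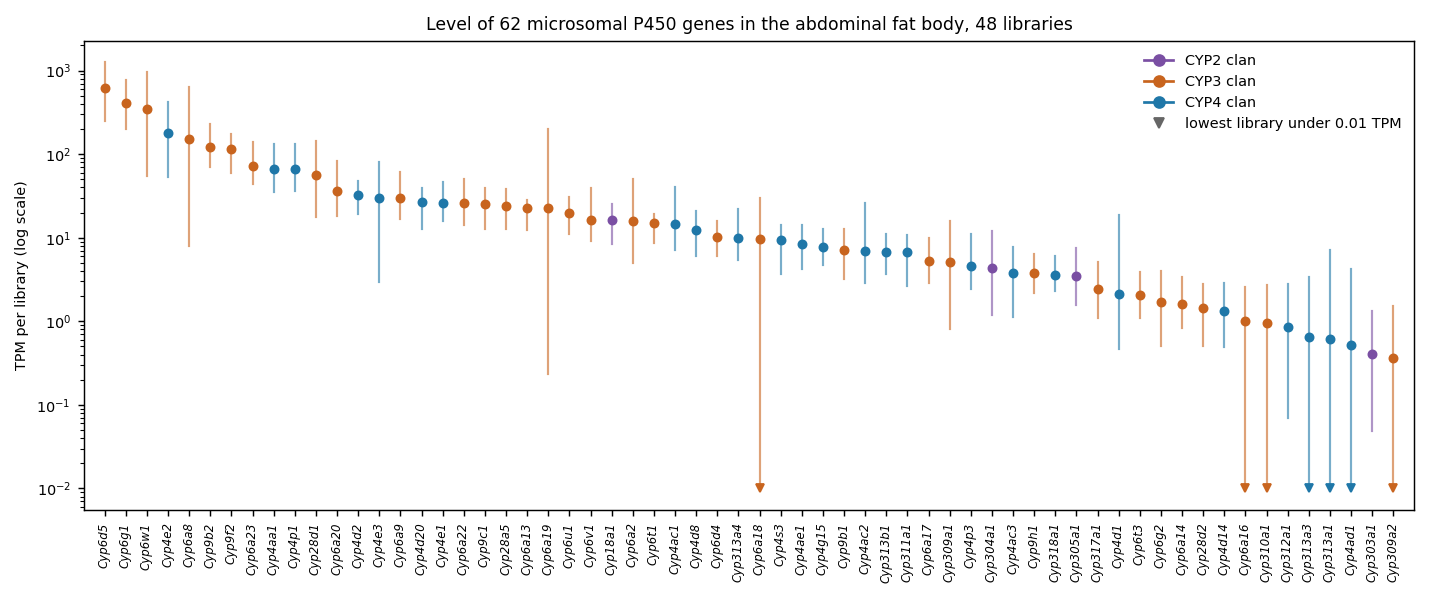
Mean TPM (points) and the range from the lowest to the highest of 48 libraries (lines) for each of the 62 genes, on a log axis and coloured by clan; triangles mark genes whose lowest library was under 0.01 TPM. The 7 genes above 100 TPM stand at the left, from Cyp6d5 at 623 TPM to Cyp9f2 at 116 TPM, and Cyp6a19, Cyp6a8 and Cyp6a18 have long ranges for their level.

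The genes also differed widely in how steady they were between libraries. The SD of log2 CPM over the 48 libraries had a median of 0.44 and ran from 0.12 for Cyp6u1, whose highest library was 1.43 times its lowest, to 1.81 for Cyp6a19. Cyp6a22 (SD 0.20), Cyp6v1 (0.24), Cyp6d4 (0.26) and Cyp6a13 (0.27) were the next steadiest. An SD above 1 was found for 10 genes, among them the abundant Cyp6a8 (1.40) and Cyp6w1 (1.03), as well as Cyp313a3 (1.69), Cyp6a18 (1.54), Cyp313a1 (1.34) and Cyp4e3 (1.18). The steadiest and the most variable gene, Cyp6u1 and Cyp6a19, had similar mean levels of 19.8 and 22.6 TPM.

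The first comparison asked which P450 genes differed between the diets over the whole day. On the restricted diet 12 of the 62 genes were higher and 3 were lower (edgeR quasi-likelihood test with time as a factor, Benjamini-Hochberg adjusted p under 0.05 over 10070 genes, 24 libraries per diet). Of all genes tested, 10.4% were higher and 15.4% lower by the same test. The median log2 change was 0.18 over the 62 genes and 0.01 over all genes, and 47 of the 62 changes were positive. Of the 15 called genes, 3 differed by at least 1.5-fold. The 24 control and 24 restricted values were fully separated for 0 of the 62 genes. The matching shares of all genes were not computed, so these counts mark no trait of the P450 genes. The limma test on log2(TPM + 1) shifted all genes by -0.10 in the median, called 4 of the genes higher and 3 lower (3.07% and 15.9% of all genes), and gave the 62 genes a median of 0.01. Their edgeR median was 0.12 with the ovary and gut marker scores (the mean log2 CPM of each list) in the fit and 0.08 with the tubule score added, and 0.14 and 0.07 in replicate series 1 and 2 alone. By clan, 6 of 33 CYP3 genes were higher and 1 lower (median 0.17), 6 of 25 CYP4 genes were higher and 2 lower (median 0.23), and 0 of the 4 CYP2 genes were called (median -0.21; 1 of 4 changes positive).

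Cyp9b1 (FBgn0015038) of the CYP3 clan had the largest called increase. It stood at 3.62, 8.08 and 16.3 CPM (lowest, median and highest library) on the control diet and at 7.29, 12.4 and 21.9 CPM on the restricted diet. The ranges overlapped broadly, and the restricted mean was higher at 11 of the 12 times. The means were 8.49 ± 2.67 and 12.9 ± 3.40 CPM (SD, n = 24 each), so that the log2 change was 0.62 ± 0.13 (SE; adjusted p = 0.00263, edgeR). Its neighbour Cyp9b2, which is far more abundant, stood at 96.8, 169 and 218 CPM on the control diet and 116, 177 and 258 CPM on the restricted diet, and was not called (log2 change 0.12 ± 0.09, edgeR adjusted p = 0.340).

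Cyp4e1, Cyp4e2 and Cyp4e3, which carry one subfamily name, had different diet values. Cyp4e1 (FBgn0015034) stood at 19.1, 31.8 and 58.7 CPM on the control diet and at 24.7, 44.6 and 61.8 CPM on the restricted diet, and rose by 0.45 ± 0.10 (log2 change ± SE, edgeR adjusted p = 0.00362). Cyp4e3 (FBgn0015035) stood at 18.1, 52.6 and 119.9 CPM on the control diet and at 5.17, 17.3 and 118.9 CPM on the restricted diet. It was lower on the restricted diet at 12 of 12 times although the highest libraries of the diets were nearly equal, with a log2 change of -0.97 ± 0.28 (edgeR adjusted p = 0.0150). Cyp4e2 (FBgn0014469) was not called, at 114, 238 and 405 CPM on the control diet and 93.0, 255 and 539 CPM on the restricted diet (log2 change 0.19 ± 0.17, edgeR adjusted p = 0.405).

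Of the other CYP4 clan genes that were higher, Cyp4g15 (FBgn0030304) is the nearest relative of Cyp4g1 in the genome and is known from the nervous system. It stood at 7.002, 15.3 and 23.6 CPM on the control diet and at 11.7, 20.2 and 31.2 CPM on the restricted diet, and rose by 0.46 ± 0.11 (edgeR adjusted p = 0.00588). Cyp318a1 stood at 2.44, 4.87 and 10.0 CPM and at 4.12, 6.62 and 9.49 CPM, with its highest value in a control library, and rose by 0.44 ± 0.10 (edgeR adjusted p = 0.00413). Cyp313a4 stood at 6.14, 12.0 and 19.4 CPM and at 11.2, 15.4 and 27.6 CPM, with a higher restricted mean at 12 of 12 times, and rose by 0.41 ± 0.11 (edgeR adjusted p = 0.0114). Cyp313b1 (medians 10.7 and 12.4 CPM, log2 change 0.27 ± 0.09, edgeR adjusted p = 0.0311) and Cyp4aa1 (medians 112 and 134 CPM, 0.29 ± 0.10, adjusted p = 0.0340) completed the 6. The call of Cyp313b1 was lost without restricted ZT2, ZT4, ZT8 or ZT14 replicate 2 (edgeR adjusted p up to 0.0587), and that of Cyp4aa1 without restricted ZT2, ZT14 or ZT16 replicate 2 (up to 0.0598). Cyp4aa1 was the most abundant of them by CPM and, at 66.3 TPM, by TPM.

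In the CYP3 clan the remaining increases were those of Cyp9f2, Cyp9c1, Cyp28a5, Cyp28d2 and Cyp6t3. Cyp9f2 (FBgn0038037) was the only called gene among the 8 most abundant of the family, at 77.8, 153 and 247 CPM on the control diet and 137, 196 and 262 CPM on the restricted diet. Its lowest restricted library lay well above its lowest control library, and it rose by 0.32 ± 0.09 (edgeR adjusted p = 0.0149). Cyp6t3, known for its part in ecdysone synthesis in larvae, was scarce at 1.18, 2.52 and 5.31 CPM and 1.81, 3.32 and 5.04 CPM, and rose by 0.43 ± 0.12 (edgeR adjusted p = 0.0149). Median CPM went from 32.8 to 38.3 for Cyp28a5 (log2 change 0.28 ± 0.09, edgeR adjusted p = 0.0240), from 1.75 to 2.15 for Cyp28d2 (0.37 ± 0.14, adjusted p = 0.0453) and from 35.3 to 45.1 for Cyp9c1 (0.29 ± 0.11, adjusted p = 0.0464). The calls of Cyp28d2 and Cyp9c1 were lost when any of 25 and 24 of the 48 libraries was left out.

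The decreases besides Cyp4e3 were Cyp6a19 and Cyp4s3. Cyp6a19 (FBgn0033979) stood at 5.42, 31.5 and 187 CPM on the control diet and at 0.430, 15.2 and 45.3 CPM on the restricted diet. The ranges overlapped from 5.42 to 45.3 CPM, the restricted mean was lower at 11 of 12 times, and the log2 change was -1.17 ± 0.41 (edgeR adjusted p = 0.0339). The call was lost without any of 6 libraries (control ZT4 and ZT16 replicate 1, control ZT18 replicate 2, restricted ZT4 replicates 1 and 2, and restricted ZT2 replicate 2), where adjusted p reached 0.0574. Cyp4s3 stood at 11.1, 20.3 and 27.8 CPM on the control diet and at 8.70, 16.7 and 23.2 CPM on the restricted diet, and fell by 0.28 on the log2 scale (SE 0.11, edgeR adjusted p = 0.0481), a call lost without any of 35 of the 48 libraries. Among genes that did not pass, the largest changes were those of Cyp304a1 (-0.54 ± 0.21, edgeR adjusted p = 0.0547), Cyp313a1 (0.53 ± 0.58, adjusted p = 0.499) and Cyp312a1 (0.49 ± 0.26, adjusted p = 0.161). Cyp304a1 passed without any of 11 of the 48 libraries (edgeR adjusted p down to 0.0256) and by DESeq2 (adjusted p = 0.0349). The value of Cyp313a1 was 0.25 without restricted ZT8 replicate 2, 0.33 without restricted ZT14 replicate 1 and 0.91 without control ZT10 replicate 1.

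**Figure D2:**
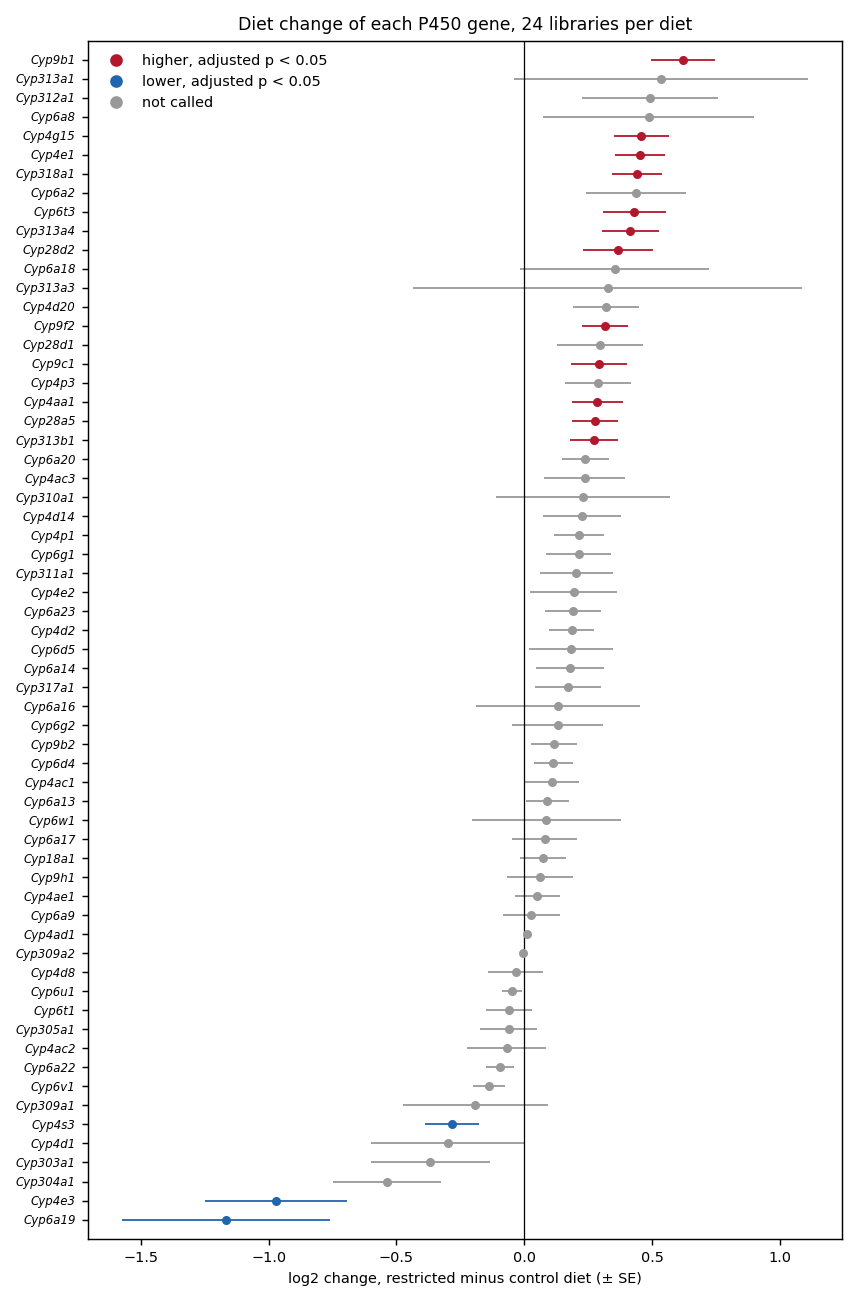
Log2 change, restricted minus control diet, with its SE for each of the 62 genes from the fit over 48 libraries; red and blue points passed the adjusted p threshold of 0.05 and grey points did not. No bar is drawn for Cyp4ad1 and Cyp309a2, whose changes lay within 0.02 of 0. The 12 red points lie between 0.27 and 0.62, and Cyp6a19 and Cyp4e3 lie apart at -1.17 and -0.97.

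The ovary transcripts moved with these changes. The ovary score, the mean log2 CPM of the ovary markers in a library, averaged 5.00 on the control and 3.90 on the restricted diet in replicate series 1, and 4.25 and 0.91 in series 2. Over the 48 libraries, 22 of 62 genes correlated with it, 17 of them negatively (Pearson r, permutation test, adjusted p under 0.05). All 17 negative and 3 of the 5 positive relations held in both series and without the 2 libraries farthest from the median score. The adjustment was over the 186 relations of the 62 genes with 3 marker scores. Other genes were not tested in this way, so the counts for the 3 scores have no share of all genes beside them. Of the 12 genes that were higher on the restricted diet, 11 were among the 17, the exception being Cyp4aa1. The score itself differed by diet, and r over the 48 libraries or within a series pools both diets. This overlap is therefore partly built in and is no separate evidence. Taken by diet and series, r was negative in every group for the 11 genes except Cyp9c1, from -0.81 to -0.14. For Cyp9c1 the control libraries gave -0.75 (series 1) and -0.03 (series 2), the restricted libraries 0.15 and 0.16. These r by group were not tested. For Cyp4g15 r was -0.81 and Spearman's rho -0.77 (permutation p = 1e-05 for both, the lowest value that 100000 shuffles allow, adjusted p = 0.000124 and 0.000155), with r = -0.79 without the 2 libraries farthest from the median score, -0.68 within series 1 and -0.84 within series 2. For Cyp6a19, one of the genes that fell, r was 0.88 and rho 0.76 (permutation p = 1e-05 for both, adjusted p = 0.000124 and 0.000155), with r = 0.85 without those 2 libraries and 0.86 and 0.87 within the series. The library with the highest ovary score, control ZT4 replicate 1, was also the lowest library of 10 of the 15 called genes and the highest of Cyp6a19. When the ovary and gut scores entered the fit as covariates, 0 of the 62 genes passed the edgeR test, against 0.109% of all genes. When the tubule score entered too, 0 passed, against 0.129% of all genes. At an unadjusted p under 0.05 (edgeR) these fits had 10 and 9 of the 62 genes, counts for which no share of all genes is given. In that last fit the changes of the 12 genes ran from 0.01 to 0.32 and those of the 3 lower genes from -0.77 to -0.11.

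The Malpighian tubule score correlated with 11 genes (9 positively). Of these, 8 positive and 1 negative relation held in both series and without the farthest libraries, and 0 of those 9 genes were called for diet. Cyp6a18 correlated with it at r = 0.96 and rho = 0.91 (permutation p = 1e-05 for both, adjusted p = 0.000124 and 0.000155 over the same 186 relations), with r = 0.92 without the 2 farthest libraries, 0.86 within series 1 and 0.98 within series 2. Values of r and rho were 0.87 and 0.84 for Cyp310a1 and 0.82 and 0.75 for Cyp6a16, with the same permutation and adjusted p. Without the 2 farthest libraries r was 0.84 and 0.76, and within the series it was 0.72 and 0.87 for Cyp310a1 and 0.86 and 0.87 for Cyp6a16. Cyp6a8 correlated with it at r = 0.55 (rho 0.59, permutation p = 5e-05 and 2e-05, adjusted p = 0.000489 and 0.000207). Its r was 0.57 without the 2 farthest libraries, and 0.63 and 0.44 within the series. In series 1 and 2 it was 0.51 and 0.72 for the control libraries and 0.33 and 0.21 for the restricted libraries, values not tested. For all 3 scores the shuffles ran over the 48 libraries regardless of diet, series or time, so these p-values take in differences between such groups. The gut score correlated with 4 genes, all positively, of which 3 held in both series and without the farthest libraries. The exception was Cyp4d1 (r = 0.40, rho 0.24, r within the series 0.57 and -0.01). The closest was Cyp4ae1 (r = 0.60, rho 0.42, permutation p = 3e-05 and 0.00293, adjusted p = 0.000310 and 0.0195). Its r was 0.50 without the 2 farthest libraries, and 0.55 and 0.60 within the series.

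The diet change was next compared between the replicate series, by the change in series 2 minus that in series 1. Within series 1, 0 of the 62 genes were called for diet, against 0.0199% of all genes (0.00993% higher and 0.00993% lower). At an unadjusted p under 0.05 (edgeR) there were 17 of the 62, a count for which no share of all genes is given. Within series 2, 18 genes were higher and 12 lower, against 20.9% and 21.9% of all genes (42.8% in either direction). Of the 15 genes called over both series, 15 had the same sign in each series. In series 2, 14 of them had the larger change and 14 were also called. The 15 were called from these same libraries, which favours like signs, so this is no separate evidence. The share among all called genes was not computed. Over all 62 genes, 26 had opposite signs in the series. The matching share of all genes tested was not computed, so this count marks no trait of the P450 genes.

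The test of the difference itself called 11 of the 62 genes, against 9.46% of all genes. Of these, 9 were lower in series 2 (4.61% of all genes) and 2 were higher (4.86% of all genes). Opposite signs in the series were found for 9 of the 11, and the matching share among all genes called by this test was not computed. The limma test on log2(TPM + 1) called 13 lower and 0 higher in series 2 (4.98% and 1.42% of all genes). The abundant Cyp6a8 (FBgn0013772), inducible by caffeine and barbiturates, differed most. In series 1 it stood at 21.9, 119 and 274 CPM on the control diet and at 149, 364 and 768 CPM on the restricted diet. These restricted libraries alternated by time, with 427 to 768 CPM at ZT4, ZT8, ZT12, ZT16, ZT20 and ZT24. At ZT2, ZT6, ZT10, ZT14, ZT18 and ZT22 they stood at 149 to 301 CPM. The median of 364 CPM fell between these sets, and the cause of the alternation was not tested. In series 2 it stood at 43.7, 263 and 472 CPM on the control diet and at 13.6, 74.8 and 159 CPM on the restricted diet. The restricted diet thus had the higher median in series 1 and the lower in series 2, with overlapping ranges in each, and the log2 changes were 1.76 ± 0.43 and -1.65 ± 0.33 (n = 12 libraries per diet; difference -3.57 ± 0.52, edgeR adjusted p = 8.05e-05). Over both series together Cyp6a8 was not called (0.49 ± 0.41, edgeR adjusted p = 0.385), and the change was 0.20 without restricted ZT12 replicate 1 and 0.29 without restricted ZT20 replicate 1.

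Cyp6w1 and Cyp4e2 had the same pattern at a smaller size, with the same alternation in the restricted libraries of series 1. There Cyp6w1 stood at 734 to 1345 CPM at the higher times of Cyp6a8 and at 214 to 420 CPM at the lower times. Cyp4e2 stood at 387 to 539 and at 202 to 267 CPM. The control libraries of series 1 ran from 121 to 586 CPM for Cyp6w1 and from 114 to 405 CPM for Cyp4e2. Median CPM of Cyp6w1 was 310 on the control and 577 on the restricted diet in series 1, and 648 and 267 in series 2, with changes of 0.94 and -0.95 (difference -1.96 ± 0.50, edgeR adjusted p = 0.0118). For Cyp4e2 the medians were 215 and 327 CPM in series 1 and 302 and 197 CPM in series 2, with changes of 0.71 and -0.45 (difference -1.19 ± 0.28, edgeR adjusted p = 0.00578). Cyp6a2, which can metabolise DDT and other insecticides, had medians of 9.95 and 24.4 CPM in series 1 and of 24.3 and 20.0 CPM in series 2 (difference -1.41 ± 0.32, edgeR adjusted p = 0.00458). Cyp309a2 was scarce throughout, with no median above 0.754 CPM, and its difference was -3.01 ± 0.62 (edgeR adjusted p = 0.00242).

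Cyp4e3 fell in series 2 and was lower by less in series 1, with medians of 49.1 and 40.4 CPM in series 1 and of 55.5 and 11.2 CPM in series 2 (difference -1.84 ± 0.40, edgeR adjusted p = 0.00373). Cyp6t1 had small changes of opposite sign, 0.25 in series 1 and -0.29 in series 2 (difference -0.53 ± 0.13, edgeR adjusted p = 0.0110). The other genes lower in series 2 were Cyp4p3 and Cyp4d8, and the 2 higher were Cyp4ac3 and Cyp9f2. Cyp6d5, the most abundant gene, had changes of 0.59 and -0.22 and did not pass (edgeR adjusted p = 0.0774). Its restricted libraries of series 1 also alternated, with 1045 to 1581 CPM at the higher times of Cyp6a8 and 487 to 744 CPM at the lower times. When the fit held the ovary and gut scores, 11 genes differed between the series, all lower in series 2, against 3.83% of all genes lower and 6.4% in either direction. With the tubule score added only Cyp6a8 and Cyp309a2 differed, both lower, against 0.745% of all genes lower and 1.47% in either direction (difference -2.51 for Cyp6a8, edgeR adjusted p = 0.0345). Mean tubule scores were 3.82 and 4.30 (log2 CPM, control and restricted) in series 1 and 3.42 and 2.70 in series 2. Without control ZT4 replicate 1 17 of the 62 genes differed, and the share of all genes rose from 9.46% to 16.7%.

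**Figure D3:**
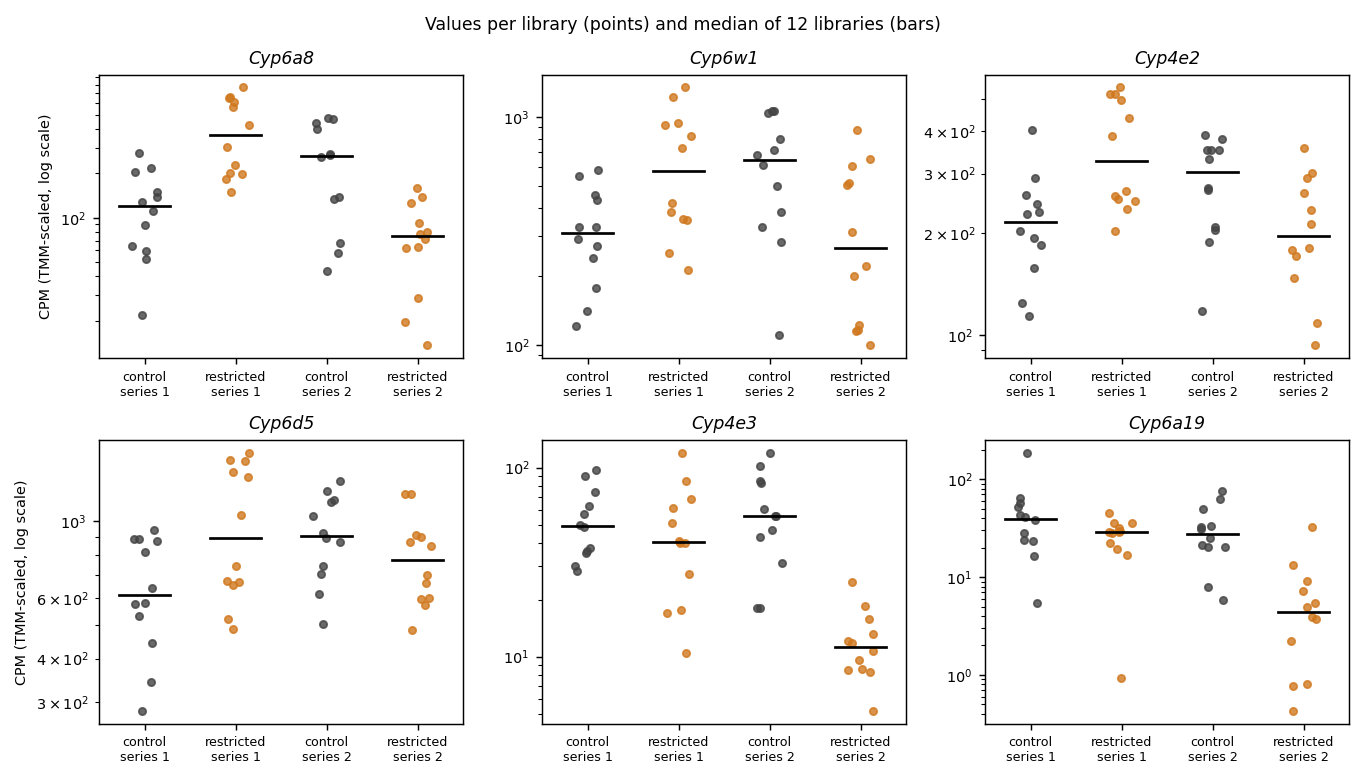
CPM per library on a log axis for 6 genes, by diet and replicate series, with a bar at the median of 12 libraries. The restricted libraries of series 1 form a higher and a lower set for Cyp6a8, Cyp6w1, Cyp4e2 and Cyp6d5. For Cyp6a8 the restricted libraries have the higher median in series 1 (364 against 119 CPM) and the lower in series 2 (74.8 against 263 CPM), and for Cyp4e3 and Cyp6a19 the restricted libraries of series 2 are the lowest group.

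**Figure D4:**
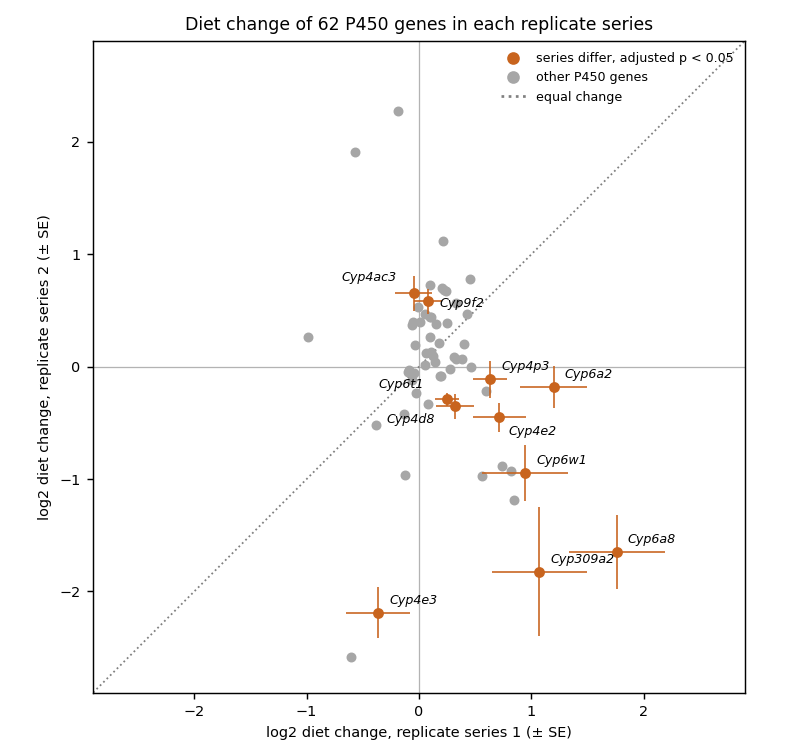
Log2 diet change of the 62 genes in replicate series 1 (horizontal axis) and series 2 (vertical axis); the 11 genes whose change differed between the series are named and have SE bars. Most of them, such as Cyp6a8 at 1.76 and -1.65, lie in the corner with a positive change in series 1 and a negative one in series 2.

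The summed level followed the abundant genes. P450 reads took 0.270% to 0.534% of counts (median 0.406%) on the control diet and 0.175% to 0.749% (median 0.387%) on the restricted diet. The control range lay inside the restricted range, and the log2 difference was 0.06 (two-sided permutation test within times, p = 0.649). The lowest restricted share was that of ZT2 replicate 1, where ribosomal RNA took 53.8% of counts. Without this library the log2 difference was 0.11 (same permutation test, p = 0.367). Within series 1 the log2 difference was 0.36 (p = 0.140) and within series 2 -0.24 (p = 0.00732), both from the same permutation test. The restricted libraries of series 1 alternated here too. Their share was 0.617% to 0.749% at the higher times of Cyp6a8 and 0.175% to 0.412% at the lower times. The control libraries of series 1 held 0.270% to 0.461%.

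The third comparison asked which P450 genes followed a daily rhythm, by fitting a 24 h cosine curve within each diet. On the control diet 1 of 62 genes, Cyp6a20, was called rhythmic (1.34% of all genes), and on the restricted diet 2, Cyp6a20 and Cyp4ac2 (1.15% of all genes). Averaged over the diets, 5 genes were called: Cyp6a20, Cyp4ac1, Cyp4ac2, Cyp304a1 and Cyp18a1 (4.47% of all genes). In all 5 the fitted peak of the averaged curve fell in the dark phase. The edgeR test of the difference between the diets called 0 genes, against 0.0199% of all genes, and DESeq2 also called 0. At an unadjusted p under 0.05 (edgeR) there were 2 genes, a count for which no share of all genes is given.

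Cyp6a20 (FBgn0033980), a P450 gene known for its part in male aggression, had the clearest rhythm. At ZT20, its highest time on both diets, the replicates stood at 90.9 and 62.6 CPM on the control diet and at 110 and 64.9 CPM on the restricted diet. Its lowest means were 33.8 CPM at ZT4 on the control diet (25.9 and 41.7 CPM) and 39.2 CPM at ZT10 on the restricted diet (40.03 and 38.5 CPM). Within each diet the replicates of the highest time thus did not overlap those of the lowest, and the ratio of the means was 2.27 and 2.22. Averaged over the diets the amplitude (peak minus mean on the log2 scale) was 0.41 ± 0.06 (SE) and the fitted peak lay at ZT 19.6 (edgeR adjusted p = 6.62e-05). The amplitudes were 0.43 ± 0.09 on the control diet (edgeR adjusted p = 0.0126) and 0.42 ± 0.09 on the restricted diet (adjusted p = 0.0164). The control call was lost without control ZT18 or ZT20 replicate 1 (edgeR adjusted p up to 0.0722) and the restricted call without restricted ZT20 replicate 1 (0.0944). The averaged rhythm had an edgeR adjusted p of 0.0505 in series 1 alone and 0.0117 in series 2 alone.

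The neighbouring genes Cyp4ac1 and Cyp4ac2 peaked in the later part of the dark phase. Cyp4ac2 (FBgn0031694) was highest at ZT22 on the control diet (23.0 and 12.1 CPM) and at ZT20 on the restricted diet (32.6 and 9.07 CPM), and lowest at ZT14 (6.24 and 4.14 CPM) and ZT10 (6.36 and 5.63 CPM). Replicate 1 was above replicate 2 at each of these peaks. Its averaged curve peaked at ZT 19.9 with an amplitude of 0.45 ± 0.11 (edgeR adjusted p = 0.00795). The amplitude was 0.58 ± 0.16 on the restricted diet (edgeR adjusted p = 0.0351) and 0.32 ± 0.16 on the control diet (adjusted p = 0.552). The call on the restricted diet was lost without any of 10 libraries, all restricted. For Cyp4ac1 the averaged amplitude was 0.29 ± 0.08 and the peak lay at ZT 20.6 (edgeR adjusted p = 0.0273), a call lost without control ZT22 replicate 1 or restricted ZT20 replicate 1 (adjusted p up to 0.0715). Cyp4ac3, the next gene in the row, was not called.

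Both other rhythmic genes belong to the CYP2 clan. Cyp18a1 (FBgn0010383) was highest at ZT12, the time of lights off, with 65.8 and 59.0 CPM on the control diet and 59.7 and 63.4 CPM on the restricted diet. Its lowest means were 32.3 CPM at ZT4 on the control diet and 31.9 CPM at ZT22 on the restricted diet, and the fitted peak lay at ZT 13.7 (amplitude 0.26 ± 0.07, edgeR adjusted p = 0.0263). This call was lost without control ZT2 replicate 2, control ZT14 or ZT24 replicate 1 or restricted ZT14 replicate 2 (edgeR adjusted p up to 0.0570), in each series alone (0.206 and 0.185), and with the 3 marker scores in the fit (0.151). Cyp304a1 (FBgn0038095) had the largest amplitude of the 5, 0.54 ± 0.14, peaking at ZT 17.7 (edgeR adjusted p = 0.0118). It was highest at ZT20 on the control diet, where the replicates lay far apart at 6.97 and 20.3 CPM, and at ZT16 on the restricted diet (11.6 and 7.53 CPM). Its averaged rhythm passed in series 1 alone (edgeR adjusted p = 0.00973) and not in series 2 alone (adjusted p = 0.590), and the difference between the series was not tested.

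**Figure D5:**
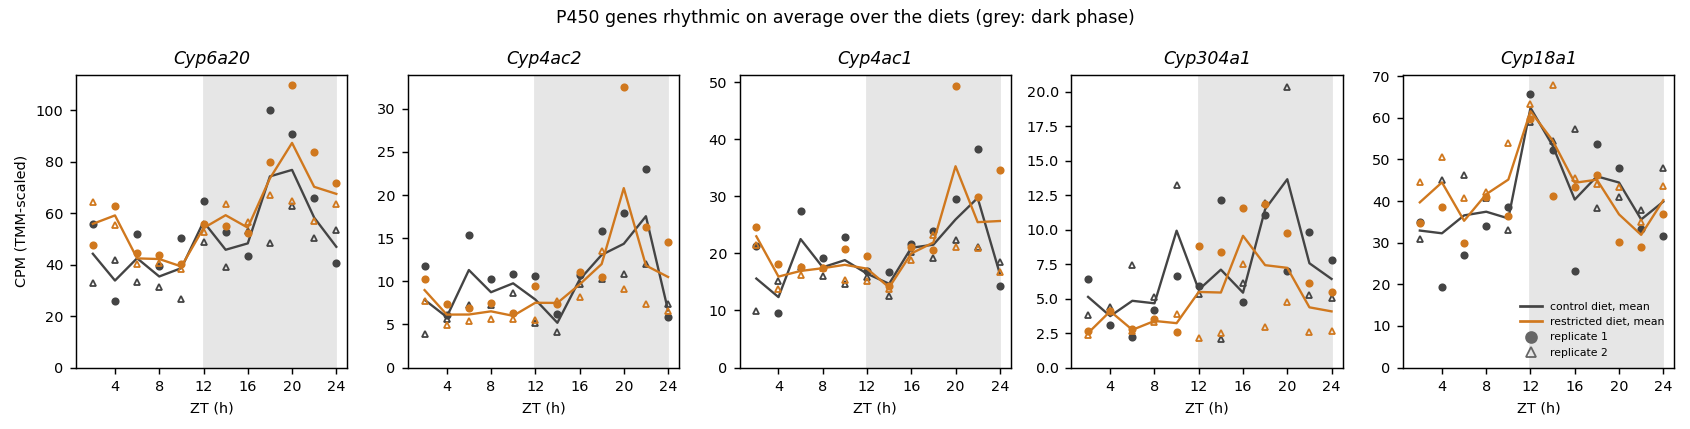
CPM by zeitgeber time for the 5 genes rhythmic on average, with the mean of 2 libraries (lines) and each library (filled circles for replicate 1, open triangles for replicate 2) on the control and restricted diets; grey marks the dark phase. Cyp6a20 reaches its highest mean at ZT20 on both diets (76.7 and 87.2 CPM), and Cyp18a1 at ZT12 (62.4 and 61.6 CPM).

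Many P450 genes lie side by side in the genome. By gene order in RefSeq's annotation of the assembly Release 6 plus ISO1 MT, in which all 62 were found, 32 of the genes formed 12 clusters of direct neighbours, the largest with 6 genes (Cyp6a22, Cyp6a17, Cyp6a23, Cyp6a19, Cyp6a9 and Cyp6a20). Over the 48 libraries the 20 neighbouring pairs had a median r of 0.36 between their log2 CPM, against 0.16 for all 1891 pairs, and ran from -0.34 (Cyp4ad1 with Cyp4e2) to 0.89 (Cyp4ac1 with Cyp4ac2). In the cluster of 6, Cyp6a17 and Cyp6a23 had r = 0.87 and Cyp6a9 and Cyp6a20 r = 0.67, while Cyp6a19 had r = -0.13 with Cyp6a23 and 0.03 with Cyp6a9. Pairs that are not neighbours were as close, such as Cyp6w1 with Cyp4e2 (0.92), Cyp6a8 with Cyp4e2 (0.88) and Cyp6d5 with Cyp6g1 (0.87). All pairs share the same libraries and their depth, so these values are descriptions.

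Reads of near-identical genes can be divided between them in an estimated count. Counts were whole within 0.01 in all 48 libraries for 40 of the 62 genes and were not whole in at least 24 libraries for 17, including Cyp6a17, Cyp6a23, Cyp4ac1, Cyp4ac2, Cyp9b1 and Cyp9b2. Among the 15 genes called for diet, 6 were of this kind, and their single values and the correlation of such pairs are less certain.

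Genes listed as partners or regulators of P450 enzymes were read in the same fit. Of 5 genes listed as redox partners 4 were tested, of which 3 rose on the restricted diet and 0 fell (10.4% and 15.4% of all genes). Cpr, the reductase that supplies the electrons, stood at 1684, 3445 and 4634 CPM on the control diet and at 2822, 3982 and 5919 CPM on the restricted diet, with a log2 change of 0.32 ± 0.09 (edgeR adjusted p = 0.0125). Cyt-b5, a second electron carrier, rose by 0.26 ± 0.08 (edgeR adjusted p = 0.0240). Cyt-b5-r, a cytochrome b5 related gene whose part in P450 reactions was not tested, rose by 0.28 ± 0.09 (edgeR adjusted p = 0.0279). With the 3 marker scores in the fit the changes of Cpr, Cyt-b5 and Cyt-b5-r were 0.07, 0.04 and 0.14 (edgeR adjusted p = 0.805, 0.921 and 0.676).

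Of 17 regulators with a known link to xenobiotic, hormone or clock control, 4 were higher and 5 lower (10.4% and 15.4% of all genes). Hr96, a nuclear receptor of the xenobiotic response, changed by -0.25 ± 0.05 (edgeR adjusted p = 0.00362), and tgo, the partner of the receptor ss, by -0.25 ± 0.08 (adjusted p = 0.0174). The subunits of the ecdysone receptor, EcR and usp, changed by -0.26 ± 0.08 and -0.27 ± 0.06 (edgeR adjusted p = 0.0246 and 0.00588), and the clock gene cyc by -0.14 ± 0.05 (adjusted p = 0.0273). Higher were maf-S, the partner of cnc (0.33 ± 0.08, edgeR adjusted p = 0.00588), Hnf4 (0.27 ± 0.06, adjusted p = 0.00436), ERR (0.20 ± 0.07, adjusted p = 0.0442) and the clock factor Pdp1 (0.32 ± 0.09, adjusted p = 0.0153). With the 3 scores in the fit 0 of these 9 passed (edgeR adjusted p of 0.144 or more). Neither cnc (0.06 ± 0.07) nor Keap1 (0.12 ± 0.08) was called.

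Among the 11 mitochondrial P450 genes tested, Cyp12e1 (0.58 ± 0.09, edgeR adjusted p = 0.000233) and Cyp12c1 (0.38 ± 0.11, adjusted p = 0.0146) were higher and sad, which makes ecdysone precursors, was lower (-1.09 ± 0.26, adjusted p = 0.00599). With the 3 marker scores in the fit these values were 0.43, 0.10 and -0.48, and none passed the edgeR test (adjusted p = 0.0746, 0.779 and 0.543). Cyp4g1, the oenocyte enzyme of hydrocarbon synthesis, took 2.73% to 10.1% of counts, many times the share of the 62 genes together, and was not called (0.21 ± 0.11, edgeR adjusted p = 0.147).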

How the data were processed

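For every gene the authors deposited an estimated count and a TPM value in each library. The submitters' processing notes name kallisto 0.44.0 and FastQC. How transcripts were summed to genes, with which annotation, genome build and strand setting, is not given in the sources used here. Of the count values 88.2% lay within 0.01 of a whole number, and all were rounded. Genes were kept with filterByExpr (minimum count 10, 24 diet-by-time groups), leaving 10070 genes, among them all 62 P450 genes. Printed CPM of single genes are scaled with TMM, while the minimum of the rule used plain library totals. Groups came from the sample descriptions.

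Tests used edgeR 4.0.16 in R 4.3.3 on all 48 libraries, with the quasi-likelihood F test and p-values adjusted by Benjamini-Hochberg over the 10070 genes (threshold 0.05). Standard errors of log2 changes are the change divided by the square root of F. Amplitudes and their standard errors were fitted by least squares to log2 CPM (prior count 2), with p-values from edgeR. The summed level was tested by permuting diets among libraries of the same time (100000 draws). Alternatives used limma 3.58.1 and DESeq2 1.42.0. The steps were tested on simulated counts.

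The P450 genes, the lists of partners, regulators and markers, and the rules for naming genes were chosen with earlier results of these data known. Named with values were the genes called for diet or rhythm, the 8 most abundant, the 2 nearest the minimum on either side, the 6 with the smallest p for diet by series, the 3 largest changes that did not pass, and the partners and regulators that passed. Other genes named for steadiness, correlation or neighbourhood were chosen after their values were seen. No sequences, motifs or coordinates are reported.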

Additional observations from a re-analysis of the deposited data

Results flagged for a closer look

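For 11 P450 genes the diet change differed between the replicate series by the test of that difference (edgeR, adjusted p under 0.05 over 10070 genes, 12 libraries per diet and series). The change in series 2 minus that in series 1, on the log2 scale, was -3.57 for Cyp6a8, -3.01 for Cyp309a2, -1.96 for Cyp6w1 and -1.84 for Cyp4e3. It was -1.41 for Cyp6a2, -1.19 for Cyp4e2, -0.74 for Cyp4p3, -0.65 for Cyp4d8 and -0.53 for Cyp6t1. It was positive for Cyp4ac3 (0.73) and Cyp9f2 (0.52). The share of mitochondrial RNA also differed between the series, with a median of 5.49% of counts in the control libraries of series 1 and 2.27% in those of series 2 (3.75% and 2.58% on the restricted diet). Its part in these differences was not tested. The replicate numbers carry no stated meaning beyond biological replicates, so that series, batch and handling cannot be told apart.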

How the results depend on the processing

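Counts of P450 genes called higher and lower for diet were 12 and 3, and 4 and 3 with limma on log2(TPM + 1), 0 and 0 with the ovary and gut scores, 0 and 0 with the tubule score added, 0 and 0 in series 1 alone, and 18 and 12 in series 2 alone. Leaving out each of the 48 libraries gave 8 to 14 higher and 1 to 4 lower; 1 was lower without control ZT4 replicate 1, control ZT18 replicate 2, restricted ZT4 replicate 1 or 2, or restricted ZT2 replicate 2. Without restricted ZT2 replicate 1, the library rich in ribosomal RNA, 14 were higher and 2 lower. Rhythmic genes on the control diet, on the restricted diet and on average numbered 1, 2 and 5. They numbered 0, 0 and 2 with limma on log2(TPM + 1), 0, 0 and 0 when time was a factor instead of a cosine, and 0, 0 and 1 in each series alone. Leave-one-out gave 0 to 2 on the control diet (0 without control ZT18 or ZT20 replicate 1, 2 without control ZT16 replicate 1), 0 to 2 on the restricted diet and 4 to 6 on average. On the restricted diet 0 remained without restricted ZT20 replicate 1, and 1 without restricted ZT2, ZT10, ZT22 or ZT24 replicate 1 or restricted ZT4, ZT6, ZT8, ZT10 or ZT18 replicate 2. Rhythm differences were 0 in every fit run. Genes that differed between the series numbered 11, 2 with 3 marker scores, 17 with DESeq2 and 8 to 17 with each library left out. The median log2 change of the 62 genes was 0.18, 0.15 to 0.22 with each library left out, 0.12 and 0.08 with 2 and 3 marker scores, 0.14 and 0.07 in series 1 and 2 alone, 0.14 with the replicate block and 0.01 with limma on log2(TPM + 1). The summed level was 0.06 (0.02 to 0.11 with each library left out) and reversed to -0.24 in series 2 alone. The other alternatives for these results (the DESeq2 test or its size factors, no filter on low counts, library sizes without the top 20 genes, and for diet no time term or a cosine) kept each count within 1.5 times, except the 17 by DESeq2 above.

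With the replicate number as a block, 16 genes were higher and 4 lower, and 1, 2, 6 and 0 were called for the rhythm tests. Deviations of same-numbered libraries correlated at -0.16 to 0.46 over the 12 times (median 0.15, above 0.1 at 8 times). Such libraries thus tended to deviate together, if weakly, and the main fit left the replicate number out.

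Of the named genes, 13 had a diet change of another sign under some alternative; none of them was called over all 48 libraries. In series 2 alone the log2 change was -0.22 for Cyp6d5, -0.0057 for Cyp6g1, -0.95 for Cyp6w1, -0.45 for Cyp4e2, -1.65 for Cyp6a8, -0.021 for Cyp9b2 and -0.18 for Cyp6a2, and in series 1 alone 1.07 for Cyp309a2, 0.25 for Cyp6t1 and -0.57 for Cyp313a1. With limma on log2(TPM + 1) it was -0.063 for Cyp18a1, -0.0052 for Cyp4ac1, -0.14 for Cyp6w1 and -0.029 for Cyp6a8. With the ovary and gut scores it was -0.11 for Cyp18a1, 0.051 for Cyp4ac2, 0.27 for Cyp309a2 and -0.16 for Cyp313a1, and with the tubule score added -0.10, 0.042 and -0.15 for Cyp18a1, Cyp309a2 and Cyp313a1. For Cyp309a2, at -0.0030, a cosine gave 0.056 and DESeq2 0.00039. With each library left out, changes ran from -0.14 to 0.0032 for Cyp4ac2, -0.093 to 0.18 for Cyp6w1 and -0.15 to 0.095 for Cyp309a2. The cause of these changes was not tested.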
